A study of Mus musculus with 30 samples.

Results

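The comparison described here asks how the ageing of bone marrow haematopoietic stem cells (HSCs) between 1 and 2 years differed between mice labelled IL1R1 KO and wild-type (WT) mice. For each gene, the change from 1 year to 2 years in WT was subtracted from the same change in IL1R1 KO, and this difference of changes is called the late interaction. It used every replicate of 4 groups: WT at 1 year (5 libraries), WT at 2 years (4), IL1R1 KO at 1 year (4) and IL1R1 KO at 2 years (5). These are 18 of the 30 RNA-seq libraries in the series, whose others are the 2-month groups and germ-free mice. Between 4000 and 5000 sorted cells per sample were reported in the labels' protocols. The labels name neither the mouse strain, the IL1R1 KO allele nor the antigens used for sorting.

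HSCs sustain blood production for life by dividing rarely and by giving rise to all blood lineages. With age, mouse HSCs are known to increase in number, to lose regenerative capacity, to favour platelet and myeloid output, and to gain transcripts such as Selp, Vwf and Clu. Interleukin-1 is an inflammatory cytokine that signals through the receptor encoded by Il1r1, its partner Il1rap, and the adaptor Myd88, towards NF-kB.

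Il1r1 (ENSMUSG00000026072, chromosome 1, 40225080 to 40317257, GRCm38) was read first, as a check of the labels. Its normalized counts were 243, 267, 282, 187 and 179.9 in WT at 1 year and 193, 312, 383 and 216 in WT at 2 years. In libraries labelled IL1R1 KO they were 232, 241, 403 and 262 at 1 year and 374, 300.0, 281, 409 and 246 at 2 years. The 4 groups overlapped, and the libraries labelled IL1R1 KO were not lower. Gene-level sums cannot reveal the loss of single exons, so every direction below rests on the labels. The late interaction of Il1r1 was -0.03 ± 0.37 (SE, log2; adjusted p = 0.997, limma).

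The labels disagree about 1 library. IL1R1 KO 1 year replicate 1 is 1 year old by its title and source, and 2 months old by its age label. It was kept at 1 year, and results are also given without it. Its mean log2 level over the HSC ageing list described below was 11.01, beside 10.94 to 10.97 over the other 3 libraries of its titled group and 9.58 to 10.20 over the 3 of IL1R1 KO at 2 months. WT libraries of 1 year were the deepest, with an estimated 32.6 to 56.3 M reads, beside 19.3 to 35.3 M over the other 3 groups. The part of this difference in the results was not tested. In the HSC marker list, Kit, the stem cell factor receptor, had 21888 to 28971 normalized counts in WT at 1 year and 18992 to 24008 in IL1R1 KO at 2 years. Procr, the endothelial protein C receptor that marks HSCs, had 5708 to 7033 and 5532 to 6288, with 4428 to 5687 in IL1R1 KO at 1 year and a late interaction of 0.29 ± 0.15 (SE, adjusted p = 0.811). Meis1, a homeobox factor of HSCs, was level across the groups, with a late interaction of 0.00 ± 0.08 (SE, adjusted p = 0.998). The groups given for Kit differ in both age and genotype, so its ranges are no contrast. Over the 30 genes of that list, every IL1R1 KO library was below every WT library in 4 at 1 year and 3 at 2 years (3.33% and 2.12% of all genes). The reverse order held in 1 and 4 (2.91% and 3.66% of all genes).

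Few single genes passed the test, among them Trim47 in the positive direction of the late interaction and Hspa1a in the negative. In the late interaction, 3 of 16958 genes tested had an adjusted p of at most 0.05 by limma (0.0177%). Of these 1 was positive (0.0059%) and 2 negative (0.0118%). At an unadjusted p under 0.05 there were 1049 genes (6.19%), 604 positive (3.56%) and 445 negative (2.62%). For the changes that make it up, 30 genes passed in IL1R1 KO from 1 to 2 years (0.177%; 20 higher, 0.118%, and 10 lower, 0.059%) and 2 in WT (0.0118%, both higher). At an unadjusted p under 0.05 those counts were 1249 (7.37%) and 739 (4.36%). The medians over all genes were 0.01 for the interaction, 0.01 for IL1R1 KO and 0.00 for WT. Without IL1R1 KO 1 year replicate 1, 2 genes passed in the interaction and 45 in IL1R1 KO; placing that library at 2 months left 0 and 10. The interaction count was 0 without IL1R1 KO 1 year replicate 2 or replicate 4, 5 without IL1R1 KO 2 years replicate 1 and 8 without WT 2 years replicate 2. A fit to the 18 libraries alone gave 14 (10 positive and 4 negative), of which Trim47 was the 1 shared with the 3. Named genes among those 14 were Gpr183, Gstm2, Cavin2, Cldn5 and Clca3a1 in the positive direction, and Zfp276, Cdk5rap1 and Ctss in the negative. No label says that replicates are separate animals, so these p-values reflect nothing but the scatter among the libraries, which may be technical.

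The HSC ageing signature, 36 genes that are known to be higher in aged mouse HSCs, was lower in IL1R1 KO than in WT at 1 year and level with it at 2 years. The median over its genes of IL1R1 KO minus WT was -0.51 (log2) at 1 year and 0.04 at 2 years. Between those ages the median change was 0.43 in IL1R1 KO and -0.07 in WT, and the median late interaction was 0.55. The late interaction was above 0 in 34 of 36 genes (94.4%), against 50.6% of all genes tested. No member passed the adjusted threshold by limma. At an unadjusted p under 0.05, 16 were positive and 1 negative (47.2% together, against 6.19% of all genes). The gap between genotypes was smaller in size at 2 years than at 1 year in 31 of 36, against 50.2% of all genes. The libraries of 1 year enter both the gap at 1 year and the late interaction, so these values are not separate observations. The list was chosen with earlier results of these data known, so its counts are no independent test. Of its genes, 3 are also in the megakaryocyte list described below. Because whole sorted samples were measured, fewer cells carrying a transcript and less of it per cell cannot be told apart.

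**Figure D1:**
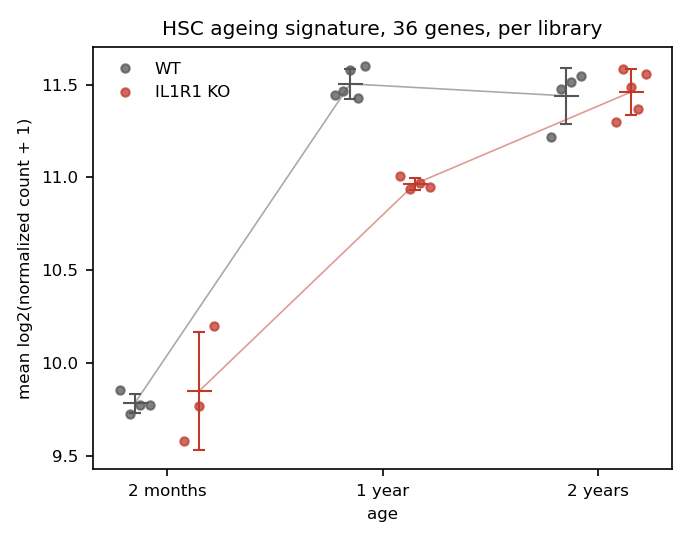
Mean log2(normalized count + 1) over the 36 HSC ageing genes for each library, by age, with WT in grey and IL1R1 KO in red; points are libraries, horizontal bars group means joined by lines, and error bars the SD. At 1 year the 4 IL1R1 KO libraries lie at 10.94 to 11.01, below the 5 WT libraries at 11.43 to 11.60, and at 2 years the genotypes overlap.

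Averaged per library, the list stood at 11.43 to 11.60 in WT at 1 year and 11.22 to 11.55 in WT at 2 years. It stood at 10.94 to 11.01 in libraries labelled IL1R1 KO at 1 year and 11.30 to 11.58 at 2 years. Thus all 4 IL1R1 KO libraries of 1 year were below every library of the other 3 groups. Gene by gene, every IL1R1 KO library was below every WT library at 1 year in 23 of 36 members, against 3.33% of all genes. At 2 years this held for 1 member (Sult1a1, a sulfotransferase), against 2.12% of all genes, and the reverse order held for Gpr183, against 3.66% of all genes. Every IL1R1 KO library of 2 years was above every one of 1 year in 18 members, against 2.09% of all genes. In WT this held for 0 members, against 0.796%. Without IL1R1 KO 1 year replicate 1, the median late interaction of the list was 0.56.

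Among its adhesion and platelet-linked members, Selp (P-selectin) had normalized counts of 12815, 12986, 16603, 15613 and 17863 in WT at 1 year and 13203, 14874, 15264 and 18732 in WT at 2 years. In libraries labelled IL1R1 KO they were 10593, 8317, 11679.8 and 9160.5 at 1 year and 16286, 18061, 19424, 13963 and 17789.7 at 2 years. The 4 IL1R1 KO libraries of 1 year were below all others, which overlapped. Selp rose in IL1R1 KO by 0.79 ± 0.16 (SE, adjusted p = 0.0207, limma), with 0.03 ± 0.16 in WT and a late interaction of 0.75 ± 0.22 (SE, adjusted p = 0.414). Jam2, a junctional adhesion molecule, rose in IL1R1 KO by 0.81 ± 0.17 (SE, adjusted p = 0.0339), with 1375 ± 235 (SD, n = 4) normalized counts at 1 year and 2422 ± 438 (SD, n = 5) at 2 years. Itgb3, the integrin beta chain of platelets, was 2447 to 2881 and then 3299.8 to 4589 in IL1R1 KO, without overlap, beside 3692 to 5764 and 4272 to 5801 in WT. Its late interaction was 0.55 ± 0.18 (SE, adjusted p = 0.547). Vwf, the von Willebrand factor that also marks platelet-biased HSCs, had a late interaction of 0.31 ± 0.21 (SE, adjusted p = 0.877). Its IL1R1 KO minus WT gap was -0.53 ± 0.15 (SE, log2) at 1 year and -0.22 ± 0.15 at 2 years, with the 4 IL1R1 KO libraries of 1 year below every WT library. Clu, a secreted chaperone, was 3979.8 to 7107 in IL1R1 KO at 1 year and 7825 to 12446 at 2 years, without overlap, beside 7481 to 11259 and 6928 to 10305 in WT. Its late interaction was 1.02 ± 0.29 (SE, adjusted p = 0.403). Nupr1, a stress-induced chromatin protein, had gaps of -0.47 ± 0.17 and -0.11 ± 0.17 (SE, log2) at the same ages.

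Enpp5, of the ectonucleotide pyrophosphatase family, had 10781, 11739, 13015, 11414 and 12482 normalized counts in WT at 1 year and 9848, 13471, 10211 and 12983 in WT at 2 years. IL1R1 KO libraries had 7329, 5869.6, 8424 and 8461 at 1 year and 11174, 11386, 12642, 11722 and 11783 at 2 years. The low IL1R1 KO libraries of 1 year again did not overlap the rest. Enpp5 rose in IL1R1 KO by 0.66 ± 0.10 (SE, adjusted p = 0.00186, limma), and its genotype gap went from -0.67 ± 0.10 to 0.03 ± 0.10 (SE, log2). Cavin2, a coat protein of caveolae, was 5728, 5652, 5342 and 5458 in IL1R1 KO at 1 year and 7705, 8905, 8706, 8014 and 8901 at 2 years. In WT it was 8954, 7914, 9596, 8831 and 9356 at 1 year and 6499, 8859.8, 9409.5 and 8995 at 2 years. All 4 IL1R1 KO values of 1 year lay below every other value. Cavin2 rose in IL1R1 KO by 0.61 ± 0.11 (SE, adjusted p = 0.00726), and its gap closed from -0.68 ± 0.11 to 0.01 ± 0.11 (SE, log2). Ehd3, an endocytic recycling protein, rose in IL1R1 KO by 0.79 ± 0.14 (SE, adjusted p = 0.00643), and Sbspon, a secreted thrombospondin-domain protein, by 1.38 ± 0.30 (SE, adjusted p = 0.0472).

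Gpr183, an oxysterol receptor that directs the migration of lymphocytes, crossed from below WT to above it. Its normalized counts were 2359.5, 2230.4, 2407, 2401 and 2009 in WT at 1 year and 1571, 2508, 2403 and 2466 at 2 years. In libraries labelled IL1R1 KO they were 1809, 922, 1823 and 1170.3 at 1 year and 3667, 3662, 3918, 4713 and 3817 at 2 years. Every IL1R1 KO library was below every WT library at 1 year and above every WT library at 2 years. It rose in IL1R1 KO by 1.52 ± 0.25 (SE, adjusted p = 0.00332, limma) and had a late interaction of 1.57 ± 0.35 (SE, adjusted p = 0.178). Gstm2, a glutathione transferase, was 1588 to 2071 in IL1R1 KO at 1 year and 3017 to 4045 at 2 years, without overlap, and 2637 to 3802 and 2563 to 3151 in WT. It rose in IL1R1 KO by 0.98 ± 0.19 (SE, adjusted p = 0.0128) and had a late interaction of 1.13 ± 0.26 (SE, adjusted p = 0.212). In the fit to the 18 libraries alone, Gpr183, Gstm2 and Cavin2 passed in the interaction, with adjusted p = 0.0160, 0.0156 and 0.0421.

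Other members had estimates that were still below WT at 2 years. Matn4, an extracellular matrix protein, was -1.49 ± 0.36 (SE, log2) relative to WT at 1 year and -0.48 ± 0.36 at 2 years. Mt1 and Mt2, the metallothioneins that bind zinc and copper, went from -1.06 ± 0.23 to -0.30 ± 0.23 and from -1.40 ± 0.34 to -0.53 ± 0.34 (SE, log2). For these 3 genes the gap at 2 years was smaller in size than at 1 year, and none had a late interaction past the adjusted threshold (adjusted p = 0.811, 0.784 and 0.828). Arhgap30, a GTPase-activating protein, ran the other way, with a late interaction of -0.54 ± 0.19 (SE, adjusted p = 0.590) and values of 2015 to 2399 and then 1258 to 1876 in IL1R1 KO. Slamf1, the CD150 antigen used to define HSCs, had 3595 to 5249 and 3541 to 4234 normalized counts in WT and 3455 to 3885 and 3719 to 5229 in IL1R1 KO, and all 4 ranges overlapped. Aldh1a1, a retinaldehyde dehydrogenase, also overlapped across the groups, with a late interaction of 0.34 ± 0.21 (SE, adjusted p = 0.863).

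**Figure D2:**
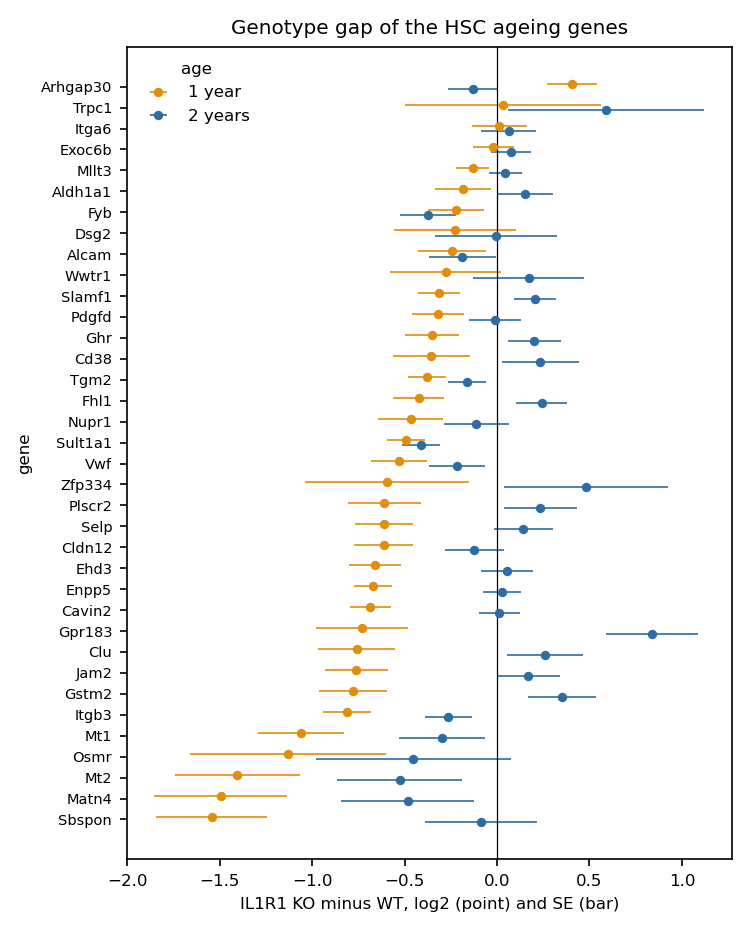
IL1R1 KO minus WT (log2, x axis) for each of the 36 HSC ageing genes, at 1 year (orange) and 2 years (blue), sorted by the value at 1 year; points are limma estimates and bars the SE. Most orange points are left of 0, with a median of -0.51, and the blue points scatter around a median of 0.04.

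The only gene that passed in the positive direction of the late interaction was Trim47 (ENSMUSG00000020773, chromosome 11, 116105752 to 116127210, GRCm38), which encodes a ubiquitin ligase of the tripartite motif family and is in none of the lists. Its normalized counts were 23482, 25458, 26978, 27992 and 31746 in WT at 1 year and 21349.8, 26100, 19642 and 27437 in WT at 2 years. Libraries labelled IL1R1 KO had 18228, 15789, 17149.7 and 16488 at 1 year and 24371, 26627, 28579, 23444 and 28050.2 at 2 years. The IL1R1 KO libraries of 1 year were below every other library of the comparison, and the other 3 groups overlapped. Trim47 rose in IL1R1 KO by 0.63 ± 0.09 (SE, adjusted p = 0.00144, limma), with -0.21 ± 0.09 in WT and a late interaction of 0.84 ± 0.13 (SE, adjusted p = 0.0143). Its genotype gap was -0.68 ± 0.09 (SE, log2) at 1 year and 0.16 ± 0.09 at 2 years. The adjusted p was 0.0188 without IL1R1 KO 1 year replicate 1, 0.0713 without replicate 2 of that group and 0.0567 without replicate 4.

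**Figure D3:**
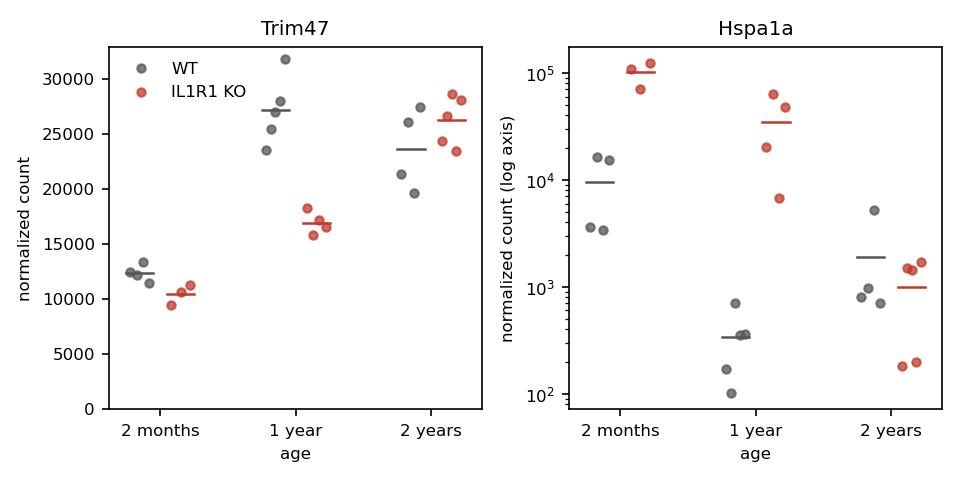
Normalized counts of Trim47 and Hspa1a in each library by age, with WT in grey and IL1R1 KO in red; points are libraries, bars are group means, and the Hspa1a axis is logarithmic. In Trim47 the 4 IL1R1 KO libraries of 1 year (15789 to 18228) lie below the other groups of 1 and 2 years, and in Hspa1a those libraries (6812 to 63727) lie above them.

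The negative direction held a heat shock gene. Heat shock chaperones refold damaged proteins, and heat shock factors induce them by binding inverted repeats of GAA upstream of the gene. Hspa1a (ENSMUSG00000091971, chromosome 17, 34969190 to 34972156, GRCm38) encodes an inducible HSP70. Its normalized counts were 20357, 63727, 6812 and 47680.3 in libraries labelled IL1R1 KO at 1 year and 182, 1489, 1419.9, 197 and 1692 at 2 years. In WT they were 170.3, 102, 707, 357 and 363 at 1 year and 795, 968, 5168 and 703 at 2 years. The 4 IL1R1 KO libraries of 1 year were above all 14 others, and at 2 years the genotypes overlapped. Hspa1a fell in IL1R1 KO by 5.26 ± 0.84 on the log2 scale (SE, adjusted p = 0.00521, limma). The change was 2.22 ± 0.84 in WT (SE, adjusted p = 1.00), and the late interaction was -7.48 ± 1.19 (SE, adjusted p = 0.0191). At 2 months, outside this comparison, IL1R1 KO libraries had 108693, 71138 and 122345 and WT libraries 3649.8, 16176, 3427 and 15282. The adjusted p was 0.0477 without IL1R1 KO 1 year replicate 1, 0.0846 without replicate 2 and 0.0573 without replicate 4.

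Other chaperones of the heat shock list also had negative late interactions. Of 26 genes in the list, 1 passed (Hspa1a), and 9 were negative and 1 positive at an unadjusted p under 0.05 (38.5% together, against 6.19% of all genes). The median late interaction was -0.15, against 0.01 over all genes. At 1 year every IL1R1 KO library was above every WT library in 9 members, against 2.91% of all genes. At 2 years the same order held in 8 members, against 3.66%. In 12 of 26 the late interaction was above 0 (46.2%, against 50.6% of all genes). The 9 negative at an unadjusted p under 0.05 were Hspa1a, Hspa1b, Hsp90aa1, Hspe1, Dnaja1, Hspb1, Dnajb1, Hsph1 and Hspa8. Hspa1b, the neighbouring HSP70 gene, whose reads can be shared with Hspa1a so that either value is uncertain, fell in IL1R1 KO by 4.83 ± 1.02 on the log2 scale (SE, adjusted p = 0.0418). Its normalized counts there were 731, 2483, 197 and 2492 at 1 year and 23.0, 47.6, 69.7, 5.77 and 82.3 at 2 years, without overlap. Hsp90aa1, the inducible HSP90, was 24848 to 65615 at 1 year and 21577 to 24151 at 2 years in IL1R1 KO, also without overlap, and its late interaction was -1.001 ± 0.268 (SE, adjusted p = 0.339). Hspb1, a small heat shock protein, spread widely at 1 year (492, 2346, 134 and 1671) and overlapped the values of 2 years (106, 197, 169, 107 and 255).

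The bases upstream of these genes are shown because a heat shock motif lay there in most of the chaperones with negative values. RefSeq promoter windows on GRCm38.p6 were found for 22 of the 26 members, and the 250 bases before each gene's start were searched on both strands for GAANNTTC and TTCNNGAA, each its own reverse complement, counting overlapping matches. A match was present in 6 of the 7 windows of genes negative at an unadjusted p under 0.05 (85.7%), in 0 of the other 15, and in 3489 of 27025 windows of all genes (12.9%). The window without a match among the 7 was that of Dnajb1. The 7 and the 15 were split by the late values themselves. The 15 held genes of the unfolded protein response, such as Hspa5, Xbp1 and Atf4. They also held the heat shock chaperones Hspd1 and Hspa4 and the co-chaperone Bag3, each with 0 matches. The split is therefore not one of heat shock genes against unfolded protein response genes, and these shares do not test a cause. Hspd1 lies beside Hspe1 on the other strand, and its window (chr1:55088244-55088493, minus strand) does not cover the Hspe1 matches. A match is a description of these letters and not a measured binding site. The windows of Hspa1a (chr17:34972157-34972406, minus strand) and Hspa1b (chr17:34959239-34959488, minus strand) had the same base at 247 of 250 positions and are not separate observations. Those of Hspe1, the mitochondrial co-chaperonin (chr1:55087898-55088147, plus strand), and Hspb1 (chr5:135887669-135887918, plus strand) held 3 and 2 matches. Capitals mark the matches, 5′ to 3′ on the gene's strand:
Hspa1a: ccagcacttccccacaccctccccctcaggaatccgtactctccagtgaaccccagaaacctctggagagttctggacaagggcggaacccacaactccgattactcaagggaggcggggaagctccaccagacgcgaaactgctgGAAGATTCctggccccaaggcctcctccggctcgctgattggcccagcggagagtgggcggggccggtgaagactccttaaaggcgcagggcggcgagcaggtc
Hspa1b: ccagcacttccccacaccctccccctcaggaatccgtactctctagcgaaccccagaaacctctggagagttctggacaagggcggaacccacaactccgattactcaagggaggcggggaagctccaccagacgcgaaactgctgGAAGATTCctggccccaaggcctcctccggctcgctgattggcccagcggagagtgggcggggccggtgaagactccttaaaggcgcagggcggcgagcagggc
Hspe1: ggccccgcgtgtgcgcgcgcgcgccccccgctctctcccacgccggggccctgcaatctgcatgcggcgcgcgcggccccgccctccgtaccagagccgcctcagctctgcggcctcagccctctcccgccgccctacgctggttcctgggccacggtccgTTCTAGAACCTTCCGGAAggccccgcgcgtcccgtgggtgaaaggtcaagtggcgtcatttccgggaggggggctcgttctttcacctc
Hspb1: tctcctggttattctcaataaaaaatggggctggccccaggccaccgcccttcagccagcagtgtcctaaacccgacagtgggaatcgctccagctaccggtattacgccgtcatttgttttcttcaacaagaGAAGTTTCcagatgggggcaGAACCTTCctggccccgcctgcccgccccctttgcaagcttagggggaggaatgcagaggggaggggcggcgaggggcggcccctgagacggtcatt

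In the unfolded protein response of the endoplasmic reticulum, Hspa5 and Ddit3 had gaps of like size at both ages. Hspa5, the reticulum chaperone BiP, was 1.18 ± 0.18 (SE, log2) above WT at 1 year and 0.92 ± 0.18 at 2 years, a late interaction of -0.26 ± 0.26 (SE, adjusted p = 0.939). Ddit3, the stress factor CHOP, had gaps of 0.80 ± 0.18 and 0.90 ± 0.18 (SE, log2). Calr, the reticulum chaperone calreticulin, was the 1 positive member, at 0.40 ± 0.19 (SE, adjusted p = 0.804). Immediate early genes such as Fos and Egr1 respond within minutes to stimulation and cell handling. At 1 and 2 years their list had a higher mean level in libraries labelled IL1R1 KO. At 2 months, outside this comparison, its level overlapped, at 10.6 to 11.9 in IL1R1 KO and 11.1 to 12.1 in WT. The median of IL1R1 KO minus WT was then -0.46 (log2). Every IL1R1 KO library was above every WT library in 9 of 26 members at 1 year and 19 at 2 years, against 2.91% and 3.66% of all genes. Their mean log2 level over 26 genes was 9.78 to 11.8 in WT at 1 year, 9.75 to 11.8 in WT at 2 years, 11.5 to 12.8 in IL1R1 KO at 1 year and 12.6 to 12.8 at 2 years. In the late interaction 0 of 26 passed and 0 had an unadjusted p under 0.05 (limma). Fos, a subunit of AP-1, had 138574 to 189922 normalized counts in IL1R1 KO at 2 years against 6004 to 111793 in WT, and Egr1, a zinc finger factor, 45347 to 50876 against 7044 to 43124. Nr4a1, an orphan nuclear receptor, was at 1.55 ± 1.32 in the late interaction (SE, adjusted p = 0.913). With the level of the list as a covariate, Hspa1a was at -7.50 (adjusted p = 0.0228, limma). That level was higher in IL1R1 KO at both ages and followed genotype more than the late interaction. A fit with it can therefore move the late interaction little. It does not show the part of cell handling in the Hspa1a result, which was not tested.

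**Figure D4:**
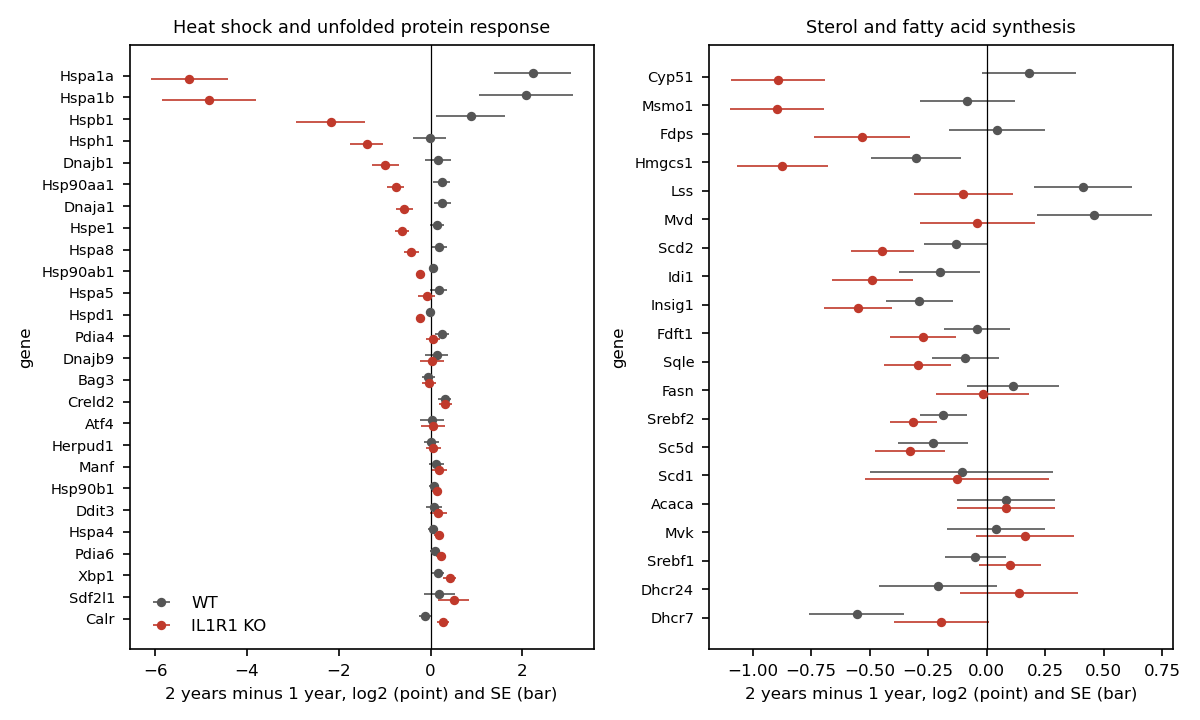
Change from 1 to 2 years (log2, x axis) of the heat shock and unfolded protein response list (left) and of genes of the sterol and fatty acid list reported here (right), with WT in grey and IL1R1 KO in red; points are limma estimates, bars the SE, and genes are sorted by the late interaction. At the top of the panels IL1R1 KO points lie left of the WT points, at -5.26 against 2.22 for Hspa1a and -0.89 against 0.18 for Cyp51.

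Cells make cholesterol through a chain of enzymes whose genes are induced when sterols run low. Several of these had lower values at 2 years than at 1 year in libraries labelled IL1R1 KO. Of 22 genes in the sterol and fatty acid list, 4 were negative at an unadjusted p under 0.05 (18.2%, against 6.19%). The median late interaction was -0.22, and the median change was -0.28 in IL1R1 KO and -0.09 in WT. In IL1R1 KO, 11 members were lower at 2 years at an unadjusted p under 0.05, against 3.2% of all genes. Every library of 2 years was below every one of 1 year in 8, among them Cyp51, Msmo1, Hmgcs1, Fdps, Scd2, Insig1 and Idi1, against 1.71% of all genes. Cyp51, the lanosterol demethylase, was 1853, 1379.7, 1584 and 1282 in IL1R1 KO at 1 year and 718, 696, 1016, 794 and 888 at 2 years. In WT it was 673, 1417, 1393, 1379 and 1067 and then 1110.0, 1208, 1611 and 1310.2. The IL1R1 KO libraries of 2 years lay below all WT libraries of that age, and the late interaction was -1.07 ± 0.28 (SE, adjusted p = 0.339). Msmo1, a methylsterol oxidase, was at -0.81 ± 0.29 and Hmgcs1, an early enzyme of the pathway, at -0.57 ± 0.27 (SE, log2; adjusted p = 0.590 and 0.804). Srebf2, a transcription factor of the pathway, was at -0.13 ± 0.14 (SE, adjusted p = 0.945).

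The 30 genes that passed in IL1R1 KO between 1 and 2 years are described here beside their WT values. The change in WT was smaller in size than that in IL1R1 KO in all 30, and under 0.25 (log2) in 25. All 20 that rose had a lower mean estimate in IL1R1 KO than in WT at 1 year, and 14 had a higher one at 2 years. All 10 that fell had a mean estimate above WT at 1 year and below it at 2 years. These are signs of estimates, and libraries could overlap, as for Hspa1a at 2 years (-0.96 ± 0.84, SE, log2). The IL1R1 KO change is a component of the interaction and shares its libraries, so these counts do not stand apart from it. The 30 genes were also selected on that change. A smaller change in WT, and gaps in these directions, are therefore partly built in by the selection. Of the 20 that rose, 8 (40%) belonged to the HSC ageing list, which is 22.2% of that list. The others included Cldn5, a tight junction claudin (1.17 ± 0.21, SE), and Clca3a1, a chloride channel regulator (0.79 ± 0.12, SE). Tdrd9, a helicase of the piRNA pathway, rose by 1.93 ± 0.33 (SE), with 101 to 227 normalized counts at 1 year and 406 to 753 at 2 years, and lay below every WT library of the same age both times (589 to 929 and 770.2 to 1426). The interferon-inducible genes Phf11d (1.16 ± 0.17, SE) and Plscr1 (0.73 ± 0.11, SE) also rose. C1qb, a complement component of macrophages, was listed at 2.26, 0, 0 and 0 in IL1R1 KO at 1 year and at 0, 73.7, 105, 30.5 and 37.8 at 2 years, and is a low gene here. Those that fell included Gas6, a ligand of TAM receptors (-0.62 ± 0.13, SE), and Lsp1, a leukocyte actin-binding protein (-0.63 ± 0.13, SE). The count of 30 became 17 without IL1R1 KO 1 year replicate 2, 15 without replicate 4, and 19 and 16 without IL1R1 KO 2 years replicates 2 and 5.

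Some genes had their larger gap at 2 years. Cytip, a cytohesin-binding protein of leukocytes, had 4198, 3894, 3889 and 3120.2 normalized counts in libraries labelled IL1R1 KO at 1 year and 5889, 5449, 5185, 4999 and 5786 at 2 years. WT libraries had 3363, 4443, 4229, 3927 and 3908 at 1 year and 3576, 3961, 3597 and 3471 at 2 years. The IL1R1 KO libraries of 2 years were above all others, and the gap went from -0.08 ± 0.10 to 0.58 ± 0.10 (SE, log2). Cytip rose in IL1R1 KO by 0.54 ± 0.10 (SE, adjusted p = 0.0152, limma), with a late interaction of 0.66 ± 0.15 (SE, adjusted p = 0.178). F2rl3, the thrombin receptor PAR4 of platelets, likewise had its 5 IL1R1 KO libraries of 2 years (7539.5 to 10136) above all others, at a late interaction of 0.96 ± 0.23 (SE, adjusted p = 0.237). Cdk5rap1, a tRNA-modifying enzyme of mitochondria, differed through WT: it was 962, 468, 744, 790.0 and 432 at 1 year and 1678, 1849, 1639 and 1074 at 2 years. In IL1R1 KO it was 683, 1012, 628 and 977 and then 698, 422, 493, 687 and 379. The 4 WT libraries of 2 years were above all others, and the late interaction was -1.87 ± 0.36 (SE, adjusted p = 0.0740). Gsdme, a pore-forming gasdermin, and Xk, a membrane protein linked to the Kell blood group, had late interactions of 0.56 ± 0.14 and 0.75 ± 0.19 (SE, adjusted p = 0.330 and 0.330), with every IL1R1 KO library above every WT library at 2 years in both. Oxr1, an oxidation resistance protein, had its larger gap at 1 year instead. Its estimate went from below WT to above it, with gaps of -0.36 ± 0.10 and 0.22 ± 0.10 (SE, log2). Its late interaction was 0.58 ± 0.15 (SE, adjusted p = 0.330). At 2 years its libraries overlapped, at 6531 to 7860 in IL1R1 KO and 5175 to 7250 in WT.

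Several other genes, among them some of myeloid cells, were higher in IL1R1 KO at 1 year and lower or level at 2 years, with adjusted p above 0.05 in the interaction. Spi1, which encodes the myeloid master factor PU.1, had 2829, 3004, 3051 and 2787 normalized counts in IL1R1 KO at 1 year and 2072, 2078, 2165, 2087 and 2256 at 2 years. WT had 2164, 2212, 2540.2, 2736 and 1872 and then 2635, 2483, 2275 and 2637. Every IL1R1 KO library was above every WT library at 1 year and below every one at 2 years, and the late interaction was -0.58 ± 0.15 (SE, adjusted p = 0.330, limma). Ctss, the lysosomal protease cathepsin S, was 441 to 826 in IL1R1 KO at 1 year, above WT (178 to 295), and 211 to 354 at 2 years, overlapping WT (267 to 678). Its late interaction was -2.07 ± 0.43 (SE, adjusted p = 0.117). Mgst1, a microsomal glutathione transferase, was at -1.25 ± 0.33, Rnpep, an aminopeptidase, at -0.71 ± 0.18, and Il12rb2, a chain of the interleukin-12 receptor, at -3.01 ± 0.78 (SE, log2; adjusted p = 0.339, 0.330 and 0.330). In each of these 3, IL1R1 KO lay above WT without overlap at 1 year. Zfp276, a zinc finger protein, and Baz1a, a chromatin remodelling subunit, had late interactions of -1.85 ± 0.47 and -1.22 ± 0.32 (SE, adjusted p = 0.330 and 0.330). Mamdc2, an extracellular protein, fell in IL1R1 KO by 0.78 ± 0.16 on the log2 scale (SE, adjusted p = 0.0207).

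The IL-1 signalling list had a median near 0 in the late interaction. Of 23 members, 0 passed by limma, and 1 positive and 1 negative had an unadjusted p under 0.05 (8.7%, against 6.19%), with a median late interaction of -0.04. Traf6, the ubiquitin ligase downstream of Myd88, was the positive one at 0.43 ± 0.17 (SE, adjusted p = 0.716), and Il1rl1, the interleukin-33 receptor, the negative one at -2.41 ± 0.97 (SE, adjusted p = 0.719). Il1rap and Myd88 were at -0.14 ± 0.33 and 0.00 ± 0.16 (SE, adjusted p = 0.972 and 0.999). Among 26 NF-kB targets 0 passed and 2 were negative at an unadjusted p under 0.05 (7.69%), with a median of 0.02. The type I interferon list had 0 of 28 past the threshold and 1 negative member at an unadjusted p under 0.05 (3.57%). Its median change was 0.31 in WT and 0.13 in IL1R1 KO, and 11 and 5 members were higher at 2 years at an unadjusted p under 0.05, against 2.27% and 4.16% of all genes. Cell cycle genes had a median of -0.02 with 0 of 36 past the threshold, and Mki67, a marker of dividing cells, was at -0.35 ± 0.22 (SE, adjusted p = 0.858). Of 28 interferon gamma and antigen presentation genes 0 passed and 2 were negative at an unadjusted p under 0.05 (7.14%). Cd74, the class II invariant chain, was at -0.48 ± 0.36 (SE, adjusted p = 0.890).

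Lists of lineage priming differed in the sign of their medians. Megakaryocyte and platelet genes (24) had 0 past the threshold by limma, and 4 positive and 1 negative at an unadjusted p under 0.05 (20.8%, against 6.19% of all genes), with a median of 0.12. Besides Selp and Itgb3, Itga2b, the platelet integrin alpha chain CD41, was at 0.69 ± 0.28 and F2r, the thrombin receptor PAR1, at 0.52 ± 0.21 (SE, log2; adjusted p = 0.716 and 0.716). Gata1, the erythroid and megakaryocyte factor, was the negative one at -1.02 ± 0.46 (SE, adjusted p = 0.786). In the myeloid priming list (18 genes) 0 passed, 1 was positive and 2 negative at an unadjusted p under 0.05 (16.7%, against 6.19%), and the median was -0.70, from 0.88 in WT and 0.04 in IL1R1 KO. Mpo, the myeloperoxidase of granulocyte precursors, had 2045, 20.5, 588, 1832 and 35.3 normalized counts in WT at 1 year and 11719, 2630.4, 3529 and 16541 at 2 years. In IL1R1 KO it had 1795, 12929.9, 1215 and 632 at 1 year and 145, 2899.7, 3281, 3640.2 and 408 at 2 years. The WT libraries of 2 years were above those of 1 year, the IL1R1 KO ages overlapped, and the late interaction was -5.37 ± 3.11 (SE, adjusted p = 0.849). In the lymphoid priming list (18 genes) 0 passed, 1 was positive and 3 negative at an unadjusted p under 0.05 (22.2%, against 6.19%), with Flt3, a cytokine receptor of multipotent progenitors, at -1.31 ± 0.48 (SE, adjusted p = 0.639). HSC identity genes (30) had a median of 0.10, 0 past the threshold, and 2 positive and 2 negative at an unadjusted p under 0.05 (13.3%, against 6.19%).

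**Figure D5:**
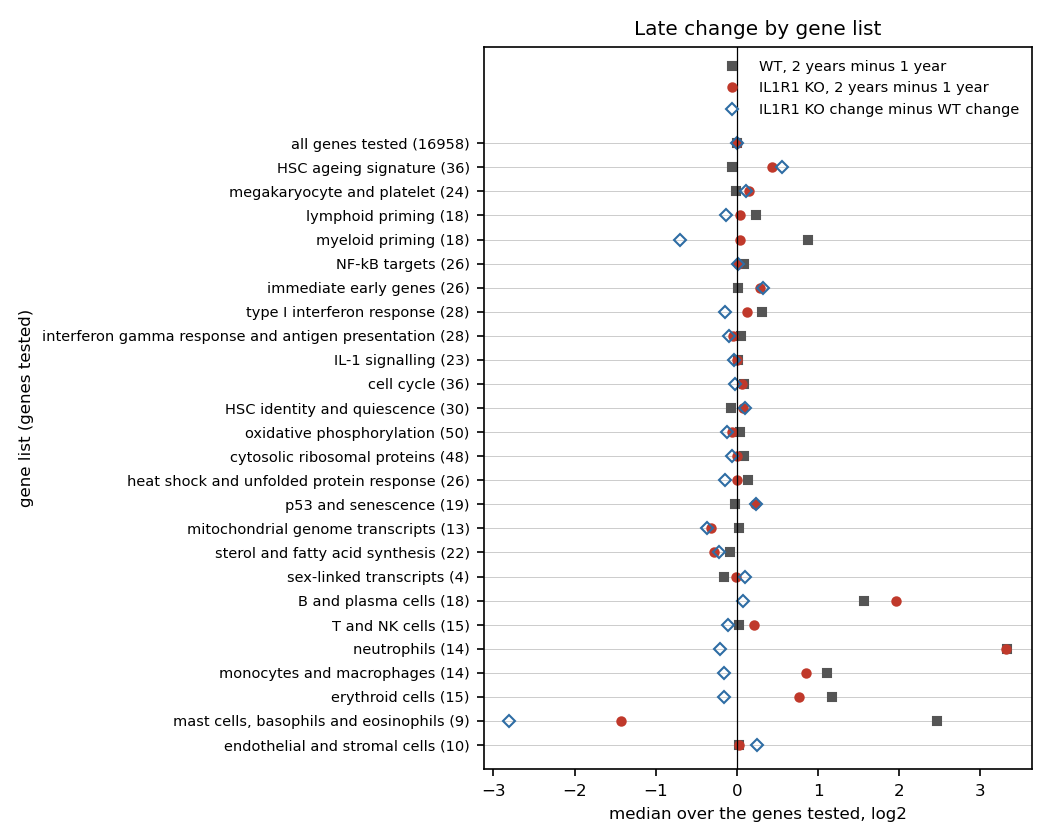
Median over the tested genes of each list of the change from 1 to 2 years in WT (grey squares) and IL1R1 KO (red circles) and of the late interaction (open diamonds), in log2, with the number of genes in brackets and all genes tested at the top. The HSC ageing list has the highest late interaction, 0.55, and the mast cell list the lowest, -2.81.

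Markers of other cells that a sort could carry had higher medians at 2 years in both genotypes for neutrophils, erythroid cells, monocytes and B cells. Neutrophil markers (14) had median changes of 3.33 in WT and 3.32 in IL1R1 KO, a median late interaction of -0.21, 0 past the threshold by limma and 0 at an unadjusted p under 0.05. Their mean log2 level was 2.06 to 6.19 in WT at 1 year and 4.16 to 10.7 at 2 years. The corresponding IL1R1 KO levels were 3.40 to 7.98 and 6.99 to 8.91. Erythroid markers (15) had median changes of 1.17 in WT and 0.76 in IL1R1 KO, with 0 past the threshold. At an unadjusted p under 0.05, 1 was positive and 3 negative (26.7%, against 6.19% of all genes). Their mean log2 levels were 6.32 to 8.21, 7.49 to 9.14, 8.43 to 9.63 and 9.62 to 10.2 in the same order. The mast cell, basophil and eosinophil list (9) had medians of opposite sign, 2.47 in WT and -1.43 in IL1R1 KO, with 0 past the threshold and 2 negative at an unadjusted p under 0.05 (22.2%, against 6.19%). At 2 years every IL1R1 KO library was below every WT library in 5 of the 9, against 2.12% of all genes. Its level was 2.71 to 3.94 and then 4.31 to 6.78 in WT, and 1.32 to 5.99 and then 1.58 to 3.59 in IL1R1 KO, where Ms4a2 and Epx were listed at 0 in all 5 libraries of 2 years. B and plasma cell markers (18) had medians of 1.57 and 1.96. The 2 genes that passed in WT were immunoglobulin variable segments: Igkv4-55 had 5.93, 0, 0, 9.76 and 0 normalized counts in WT at 1 year and 292, 4126, 5.97 and 2920.3 at 2 years, and Ighv14-3 had 4.24, 0, 1.03, 0 and 6.60 and then 55.7, 227, 696 and 189.8. Their values were at most 6.62 in every library labelled IL1R1 KO. T and NK cell markers (15) had a median late interaction of -0.11, monocyte and macrophage markers (14) -0.16, and endothelial and stromal markers (10) 0.25, and none of these lists or of 4 sex-linked transcripts had a member past the threshold. At an unadjusted p under 0.05 there were 2, 2, 0 and 0 members in that order (13.3%, 14.3%, 0% and 0%). The B and plasma cell markers had 2 (11.1%), against 6.19% of all genes. With the neutrophil level as a covariate, the adjusted p was 0.0217 for Trim47 and 0.0227 for Hspa1a. With the erythroid level it was 0.0252 and 0.0252. No fit used the level of the mast cell, basophil and eosinophil list, whose medians had opposite signs in the genotypes. These fits therefore do not show the part of the other cell types in the results, which was not tested.

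Transcripts of the mitochondrial genome had a median change of -0.31 in IL1R1 KO and 0.03 in WT, and 0 of 13 passed in the late interaction. All 13 had a late interaction below 0, where 50.6% of all genes were above 0. The median was -0.36, and 1 had an unadjusted p under 0.05 (7.69%). In 8 of 13 every IL1R1 KO library of 2 years was below every one of 1 year, against 1.71% of all genes. mt-Nd2, a subunit of complex I, had 5927, 6679, 5715 and 5950.1 normalized counts in IL1R1 KO at 1 year and 5142, 4554, 4114, 4558 and 3766 at 2 years, without overlap, and 3569 to 8079.9 and 4817 to 7409 in WT. Its late interaction was -0.63 ± 0.30 (SE, adjusted p = 0.804, limma), and that of mt-Nd1, another subunit of that complex, was -0.29 ± 0.31 (SE, adjusted p = 0.943). These 13 genes are cut from the same long transcripts and are not separate observations. Nuclear oxidative phosphorylation genes (50) had a median of -0.13, with 0 past the threshold. At an unadjusted p under 0.05, 4 were negative (8%, against 6.19% of all genes). Among 48 cytosolic ribosomal protein genes 0 passed and 1 was positive at an unadjusted p under 0.05 (2.08%), with a median of -0.06. The p53 and senescence list (19) had 0 past the threshold and 0 at an unadjusted p under 0.05, with 16 members above 0, against 50.6% of all genes, and a median of 0.23. Cdkn1a, the cell cycle inhibitor p21, was at 1.31 ± 0.78 (SE, adjusted p = 0.853) with 5463, 1933, 4184 and 862 in IL1R1 KO at 1 year and 5532, 4344, 5306, 5781 and 5195 at 2 years.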

How the data were processed

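Bone marrow HSCs were sequenced as Smart-seq2 libraries, read from 1 end without strand, so antisense genes cannot be told apart, per the labels' protocols. The deposited values are a signal scale, normalized counts per gene made by the authors. They used Salmon 1.2.0.0 on GRCm38, DESeq2 1.26.0, cutadapt 2.10 and FastQC 0.11.9, per the submitters' processing notes. The step from transcripts to genes is not described there. Within a tolerance of 0.001, 11% to 18.5% of the low values of the 18 libraries lay on whole reads, so no count test was run. Sums of normalized counts were 27.5 to 30.1 M per library, and depth was estimated from the step of 1 read.

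Values of at least 10 in at least 3 of all 30 libraries kept 16958 of 35727 genes. log2(normalized count + 1) was fitted with limma 3.58.1 (R 4.3.3), with 8 group means, trend and robust settings, after a check on simulated data. Fold changes are on this scale, which understates those of low genes. Tests were two-sided, with p-values adjusted by Benjamini-Hochberg across all genes kept and a threshold of 0.05. No overlap means that every library of 1 group exceeded every library of another. Positions came from GENCODE M21 and promoter windows from RefSeq (GRCm38.p6).

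Named genes were Il1r1, the called genes filled up to 12 per direction by the smallest p at a group mean of at least 50, up to 4 called members per list, and a fixed set (Selp, Nupr1, Clu, Aldh1a1, Vwf, Slamf1, Mpo, Mki67, Cd74, Fos, Egr1, Nr4a1, Procr, mt-Nd1). Other genes were chosen after their values were seen, and some that the rule or the lists take are not reported here. The comparison and its 25 lists were chosen with earlier results of these data known. The HSC ageing list was compiled from general knowledge, but also with those earlier results known, so it is not independent of these data. Alternatives changed the pseudocount, filter, scaling, libraries in the fit, variance model, library weights, covariates, replicate block and each library in turn.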

Additional observations from a re-analysis of the deposited data

Results flagged for a closer look

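In 10 of 156 checks of a named gene in a group of 4 or 5 libraries, 1 library stood apart from the others of its group by Dixon's test at 95%, where chance flags about 1 in 20. Among the genes of the heat shock and HSC ageing lists, Hspa1a had 5168 normalized counts in WT 2 years replicate 3, beside 703.5 to 968.3 in the other 3 libraries. Cavin2 had 6499 in WT 2 years replicate 1, beside 8860 to 9410. Gpr183 had 4713 in IL1R1 KO 2 years replicate 4, beside 3662 to 3918, and 1571 in WT 2 years replicate 1, beside 2403 to 2508. IL1R1 KO 1 year replicate 2 was low in Vwf, at 4843 beside 7139 to 7585, and high in Nupr1, at 5389 beside 4504 to 4543. The same library was low in Gsdme, at 4827 beside 5460 to 5565. In WT at 1 year, F2rl3 had 5143 in replicate 1, beside 6567 to 6866. Zfp276 had 1041 in replicate 5 of that group, beside 868.8 to 905. Cd74 had 5476 in replicate 2, beside 10970 to 13360.

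The change from 1 to 2 years differed between the genotypes by the interaction test (limma, adjusted p of at most 0.05) in Trim47 and Hspa1a. The difference was 0.84 for Trim47 and -7.48 for Hspa1a on the log2 scale.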

How the results depend on the processing

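The median late interaction of the HSC ageing list stayed positive, at 0.53 to 0.57 over 15 alternatives and 0.48 to 0.63 with each library left out in turn. The count of genes past the threshold in the interaction, 3, was 6 with a pseudocount of 8, 14 in the fit to 18 libraries, 1 without the trend and robust settings and 19 with array quality weights. It was 0 with IL1R1 KO 1 year replicate 1 placed at 2 months and 22 in the 18-library fit without that library, an alternative chosen after seeing the data. Leaving out each library gave 0 to 8. The count in WT, 2, was 0 with a pseudocount of 0.5, a mean of at least 50, no trend or the erythroid covariate, 1 with upper quartile scaling or the immediate early gene covariate, 9 with array quality weights, and 0 to 7 with a library left out. The count in IL1R1 KO, 30, was 90 in the 18-library fit, 10 with replicate 1 placed at 2 months, 83 with array quality weights, 120 in the added fit, and 15 to 45 with a library left out. With a replicate block the interaction count was 1 and the WT count 1. The 1 in the interaction was Gstm2 (adjusted p = 0.0368, limma), and Trim47 and Hspa1a missed the threshold at an adjusted p of 0.180 each. The deviations of same-numbered libraries correlated at -0.07 to 0.16 over 25 pairs, 1 of them over 0.1. Those of other pairs correlated at -0.18 to 0.09 over 96 pairs. Of 18 libraries, 6 lay closest to their own number. No label says what the numbers mark, so they were not taken to pair samples. These values do not show whether same-numbered libraries shared a block, so the fit with a replicate block stands as an alternative. Values near 0 changed sign. Il1r1 was at 0.027 with array quality weights, 0.15 with the replicate block and -0.18 to 0.15 with a library left out. With the immediate early gene covariate Fos was at -0.24 and Egr1 at -0.32, and with a library left out they were at -0.59 to 0.96 and -0.46 to 0.41. The causes of these shifts were not tested. Estimated depth limits genes of few reads, such as the mast cell markers.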
